A study of Mus musculus with 42 samples.

Results

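Crypts of the distal colon were compared between wild-type (WT) mice recovering from dextran sulfate sodium (DSS) colitis and untreated WT mice of the same colony. The libraries were chosen by label, as all 6 library columns of the table that compares WT distal crypts after DSS with WT distal crypts at baseline, which are 6 of the 42 libraries (14 conditions) of the series. The series profiled RNA of colon crypts and tumors from WT mice, *Mtg16*-/- mice and mice homozygous for the P209T mutation (*Mtg16*T/T), to find out how the corepressor MTG16 acts in the colon epithelium. All mice were on the C57/BL6 background and at least 8 weeks old, and each mutant colony was bred apart, with its own WT littermates. The 6 mice here were WT animals of the P209T colony. The 3 mice of the DSS group drank 2% DSS for 5 days and then water for 4 days, and the 3 baseline mice had no DSS. The last 5 cm of the colon were used and their crypts released with a chelator, so a library holds a whole crypt preparation and not sorted cells. The WT distal crypts of the *Mtg16*-/- colony (3 libraries after the same DSS course, 4 at baseline) served as the comparison colony.

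DSS damages the epithelial lining of the colon, most of all in its distal part, and when it is withdrawn the crypts regrow from surviving stem and progenitor cells. Stem cells at the crypt base feed a zone of dividing progenitors, whose daughters become absorptive colonocytes or secretory cells, namely mucus-making goblet cells, hormone-making enteroendocrine cells and chemosensory tuft cells. MTG16, encoded by *Cbfa2t3*, carries no DNA-binding domain of its own and represses genes by joining transcription factors such as the E proteins to other corepressors and histone deacetylases.

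The libraries held 38008486 to 74661887 reads assigned to genes. They differed within each group and in sequencing request, and these differences bear on each result. All baseline libraries came from sequencing request 5094 and all DSS libraries from request 5740, so request and treatment cannot be told apart. DSS replicates 1 and 2 stood apart from every other library. With genes divided into 5 equal groups by the GC content of the longest transcript, the GC-poorest group (at most 44.3%) had a median log2 shift from the baseline mean of -1.88 and -2.11 in them, against -0.662 in DSS replicate 3 and -0.00771 to 0.0653 at baseline. Across genes, the log2 fold change was higher the higher the GC content (Spearman rho = 0.713, n = 13566 genes, which are not independent and share the same libraries). The baseline libraries also differed in sex, since baseline replicate 1 had 30640 normalized counts of *Xist* and the other 5 libraries at most 6.15. Each call below rests on a small number of libraries. Without baseline replicate 2, 1 gene rose (the histone gene *H2ac19*) and 0 fell in limma (1903 higher and 2991 lower at an unadjusted p under 0.05), and with the *Xist* level as a covariate 0 rose and 1 fell (the pseudogene *Rps6-ps4*; 1940 and 2824 at an unadjusted p under 0.05). The direction of all 4833 called genes was the same in both alternatives, wherever they could be tested. These genes were called in the same libraries, so a kept direction is no independent support for them.

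**Figure D1:**
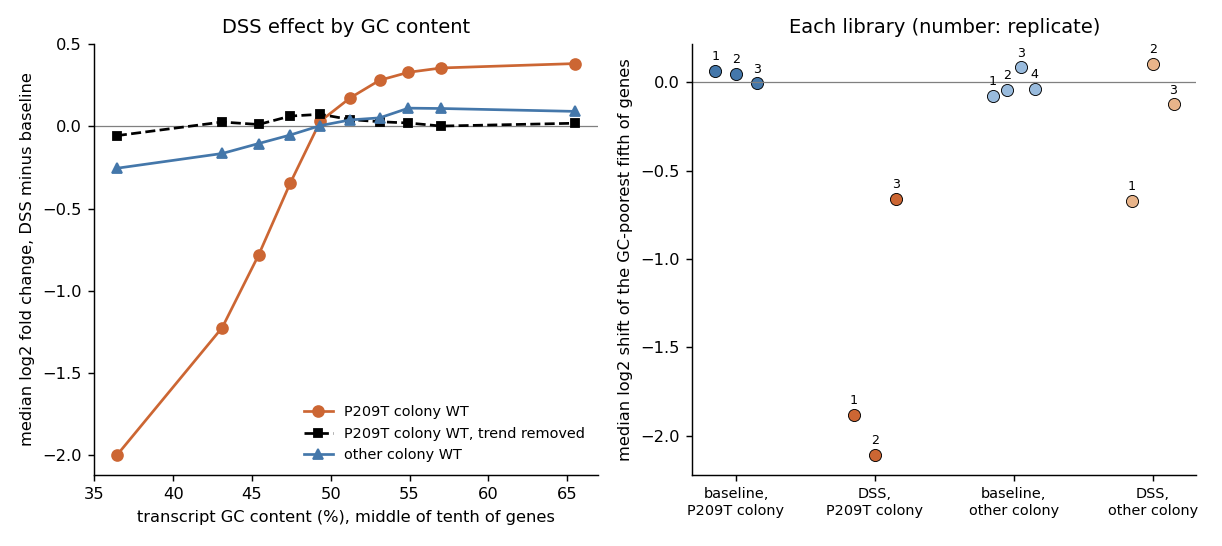
Left, median log2 fold change (DSS minus baseline) of genes in 10 equal groups by transcript GC content for WT crypts of the P209T colony, before and after removal of the GC and length trend, and of the other colony; right, median log2 shift of the GC-poorest of 5 groups of genes in each library, numbered by replicate. The P209T colony line starts at -2.0 in the GC-poorest group and ends at 0.38 in the richest, and DSS replicates 1 and 2 lie at -1.88 and -2.11, below all other libraries.

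Values below are normalized counts, the reads of a gene divided by a size factor per library, and a fold change is DSS minus baseline on the log2 (normalized count + 1) scale with its SE. Of the 17589 genes listed, 13566 had a mean of at least 10 and were tested with limma (p-values adjusted by Benjamini-Hochberg, called below 0.05). After DSS 1897 genes rose (14%) and 2936 fell (21.6%), and the 2 groups of 3 libraries did not overlap for 7506 (55.3%). The counts in the gene lists below are to be read beside these shares. An exact permutation test of 3 against 3 libraries cannot give a p below 0.1, and nothing in the labels says more about the replicates than that they are separate samples, so the p-values measure the spread between these libraries. Because of the GC trend, each value is followed where it matters by the one obtained after each library's smooth trend with transcript GC content and length was removed, an alternative chosen after the data were seen, called here the trend-removed value. It left 1828 genes higher (13.5%) and 1368 lower (10.1%). With genes in 10 equal groups by GC content, 84.5% of the GC-poorest group fell and 31.2% of the GC-richest group rose. With the trend removed, 23.1% of the GC-poorest group were higher and 21.3% lower, against 7.15% and 5.16% of the GC-richest group. The frequency of calls thus still depended on GC content.

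The gene of MTG16 itself rose. *Cbfa2t3* (chr8:122625141-122699109, minus strand, GRCm38) had 1089, 1129.7 and 1202 normalized counts at baseline and 2876, 2863 and 2126 after DSS. The log2 fold change was 1.19 (SE 0.155, limma adjusted p = 0.00814), and the trend-removed value was 0.77 (adjusted p = 0.00829). The groups did not overlap, and the lowest DSS library was DSS replicate 3, the one nearest to baseline in GC trend.

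Of the 16 tested genes of the MTG family, the E proteins, their Id inhibitors and MTG partners, 4 rose (25%) and 2 fell (12.5%), beside 14% and 21.6% over all genes. The median log2 fold change was -0.13, beside 0.00 over all genes, and 4 rose and 1 fell with the trend removed (median 0.10). *Id4*, an inhibitor that sequesters E proteins, went from 160.1, 159.6 and 194 to 296, 295 and 335 normalized counts (log2 fold change 0.85, adjusted p = 0.0169). It is GC-poor (42.6%), and its trend-removed value was 2.29 (adjusted p = 0.00564), so the size of its rise depends on the fitted trend. The E protein gene *Tcf3* rose by 0.36 on the log2 scale (adjusted p = 0.0486), but its trend-removed value was -0.02 (adjusted p = 0.915). The E protein gene *Tcf4* and the histone deacetylase gene *Hdac2* fell, with log2 fold changes of -1.57 and -1.47. Both are GC-poor (40.9% and 41.9%), and their trend-removed values had the opposite sign, 0.75 and 0.03. The E protein partner gene *Ascl2*, which encodes a transcription factor of crypt-base stem cells, had 243, 344 and 251 normalized counts at baseline and 427, 367 and 408 after DSS. All DSS libraries lay above all baseline libraries, but the log2 fold change of 0.54 (SE 0.194) did not pass in limma (adjusted p = 0.0688) or edgeR (0.0633) and passed in DESeq2 (0.0374), with a trend-removed value of 0.23 (adjusted p = 0.398).

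Goblet cell genes were mostly higher after DSS. Of 23 tested, 14 rose and 1 fell, with a median log2 fold change of 0.78 beside 0.00 over all genes, and 14 rose and 0 fell with the trend removed (17 higher and 2 lower at an unadjusted p under 0.05). In these bulk libraries more cells of a type and more RNA per cell cannot be told apart. *Spdef* (chr17:27714352-27728955, minus strand), the transcription factor gene of goblet cell maturation, had 2167, 2038 and 1911 normalized counts at baseline and 6619.9, 6715 and 5249.9 after DSS. Its log2 fold change was 1.6 (SE 0.135, adjusted p = 0.00693), with a trend-removed value of 1.28. No DSS library came near the highest baseline library.

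The other goblet regulators had smaller fold changes. *Atoh1*, the master regulator of the secretory lineage, had 3789, 4299 and 3807 normalized counts at baseline and 7302, 6504 and 5414 after DSS, a log2 fold change of 0.68 (SE 0.141, adjusted p = 0.0171). *Foxa3* rose by 0.89 on the log2 scale (adjusted p = 0.0127). Secreted products of the mucus layer rose as well. *Fcgbp*, a large protein of the mucus gel, went from 318102, 289088 and 335634 to 733906, 699243 and 553145 normalized counts (log2 fold change 1.07, adjusted p = 0.00873), with a trend-removed value of 0.59. *Zg16*, a lectin that binds Gram-positive bacteria, went from 93232, 89485 and 99716 to 209928, 204175 and 171014 (1.05, adjusted p = 0.00803). In both genes DSS replicate 3 was the lowest of the DSS libraries and still above all baseline libraries. *Spink4* rose by 1.34 on the log2 scale, and *Tff3*, the trefoil peptide of mucosal repair, rose by 0.76 (trend-removed 0.48, adjusted p = 0.0889).

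**Figure D2:**
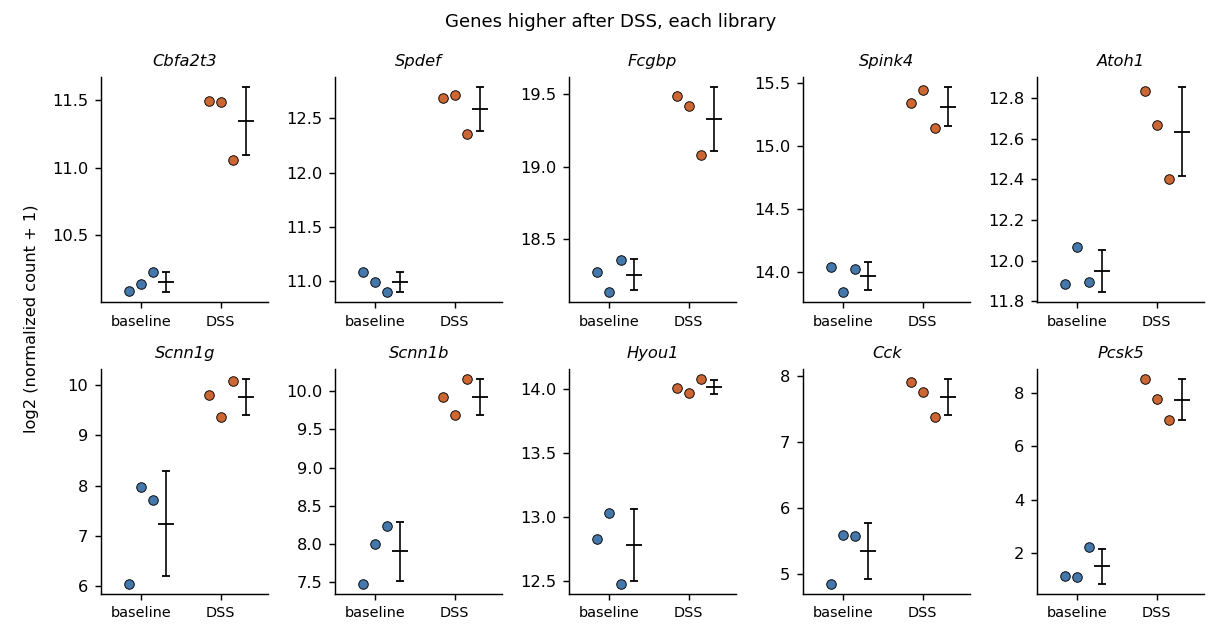
Level of 10 genes that rose, as log2 (normalized count + 1), in each of the 6 libraries; points are libraries in the order of their replicate numbers, and bars are the mean and SD of 3 libraries. In all 10 genes the 3 DSS libraries lie above the 3 baseline libraries, as in *Spdef* at 5249.9 to 6715 against 1911 to 2167 normalized counts, and each panel has its own scale.

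Some goblet genes did not pass or fell. *Clca1*, a secreted mucus-processing protein, had 181034, 103231 and 154300.0 normalized counts at baseline and 134965, 128687 and 212783 after DSS, with overlapping groups (log2 fold change 0.12, adjusted p = 0.744). With the trend removed it passed, at 0.79 (adjusted p = 0.0319). *Sytl2*, which encodes a regulator of vesicle docking, was the 1 goblet gene that fell (-1.67, adjusted p = 0.0396), and its trend-removed value was -0.80 (adjusted p = 0.0646). Of the 386 measured and tested genes in a published goblet cell set, 176 rose and 54 fell (median log2 fold change 0.43), and 189 rose and 15 fell with the trend removed. The published set of *Ascl2*-positive de-differentiating cells that regrow the crypt base gave 85 higher and 23 lower of 188 tested, with a median of 0.46, and 89 higher and 6 lower with the trend removed.

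Genes of protein folding in the endoplasmic reticulum (ER), which secretory cells need in bulk, rose for the most part. Of 18 tested, 11 rose and 1 fell, with a median log2 fold change of 0.50, and 11 rose and 1 fell with the trend removed. *Hyou1*, an ER chaperone, had 7281, 8389 and 5715 normalized counts at baseline and 16454, 16066 and 17289.5 after DSS (log2 fold change 1.24, SE 0.154, adjusted p = 0.00803). The groups were far apart, and DSS replicate 3 was the highest library. *Syvn1* and *Herpud1*, which encode parts of the machinery that degrades misfolded ER proteins, rose by 0.97 and 0.89 on the log2 scale (0.60 and 0.67 with the trend removed). *Hsp90b1*, the ER form of HSP90, fell from 44341, 39587 and 32459 to 7624, 6129 and 22075 (-1.93, adjusted p = 0.0241; trend-removed -0.86, adjusted p = 0.0328), and DSS replicate 3 lay between the other DSS libraries and baseline. Of 22 genes of the integrated stress response, 7 rose and 2 fell (median 0.48), and 6 rose and 0 fell in limma with the trend removed (8 and 0 at an unadjusted p under 0.05). *Slc7a5*, a transporter of large neutral amino acids, went from 517, 475 and 496 to 1497, 1339.6 and 1472 normalized counts, with nearly equal values within each group (log2 fold change 1.53, adjusted p = 0.00693). *Stc2*, which encodes a secreted glycoprotein hormone, rose by 1.41 on the log2 scale.

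Genes of salt and water transport moved in both directions. Of 24 tested, 9 rose and 4 fell (median log2 fold change 0.27), and 8 rose and 0 fell with the trend removed (10 higher and 1 lower at an unadjusted p under 0.05). The 3 subunits of the epithelial sodium channel ENaC moved together. *Scnn1g* (gamma subunit) had 65.5, 249.6 and 209.2 normalized counts at baseline and 889, 659 and 1083 after DSS, a log2 fold change of 2.50 (SE 0.512, adjusted p = 0.0168). *Scnn1b* (beta subunit) had 177, 255 and 299 at baseline and 969, 825 and 1142 after DSS, a log2 fold change of 2.02 (SE 0.24, adjusted p = 0.00803). *Scnn1a* (alpha subunit) had 7325, 7724 and 7822 at baseline and 14565, 14027 and 12253 after DSS, a log2 fold change of 0.83 (SE 0.107, adjusted p = 0.00814), with a trend-removed value of 0.45. For none of the 3 subunits did the groups overlap. *Sgk1*, a kinase gene that aldosterone induces and whose product keeps ENaC at the surface, rose by 1.56 on the log2 scale, and *Hsd11b2*, whose enzyme shields the mineralocorticoid receptor from glucocorticoids, rose by 1.4. *Best2*, an anion channel of goblet cells, rose by 1.59 on the log2 scale.

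The transport genes that fell were GC-poor, and with the trend removed none was called lower in limma. *Aqp4*, a water channel, went from 37540.5, 36488 and 38049 to 8337, 6167 and 13497 normalized counts (log2 fold change -2.08, adjusted p = 0.00814), but its trend-removed value was -0.08 (adjusted p = 0.732). *Cftr*, the chloride channel, had a log2 fold change of -1.96 and a trend-removed value of 0.19 (adjusted p = 0.153). *Slc26a3*, the chloride and bicarbonate exchanger of surface colonocytes, went from 37380.4, 52432 and 48528 to 10394, 9137 and 27057 normalized counts, a log2 fold change of -1.74 (trend-removed -0.59, adjusted p = 0.054). In each of these genes DSS replicate 3 was the highest DSS library.

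Of 35 absorptive colonocyte genes, 11 rose and 6 fell (median log2 fold change 0.18), and 10 rose and 1 fell with the trend removed. *Guca2a*, which encodes the secreted peptide guanylin, went from 5306, 3594 and 6305 to 15966, 18921 and 8515 normalized counts (log2 fold change 1.47, adjusted p = 0.0223). *Alpi*, intestinal alkaline phosphatase, rose by 2.07 on the log2 scale from low counts. *Clca4b* fell by 2.37 on the log2 scale and by 1.23 with the trend removed (adjusted p = 0.0159), although its reads may be shared with its near-identical neighbor *Clca4a*. For *Slc5a8*, a butyrate transporter, and *Abcg2*, an efflux pump, log2 fold changes of -1.44 and -1.64 became 0.73 and 0.71 with the trend removed. *Lypd8*, a surface protein that keeps flagellated bacteria off the epithelium, had a log2 fold change of 0.26 (adjusted p = 0.189).

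Several hormone genes of enteroendocrine cells rose, while the wider lists of these cells gave calls in both directions. Of 26 enteroendocrine genes tested, 7 rose and 3 fell (median log2 fold change 0.24), and 7 rose and 1 fell with the trend removed. A published enteroendocrine set had 13 higher (9.22%) and 24 lower (17%) of 141 tested (median 0.02), both shares below those of all genes (14% and 21.6%). With the trend removed 15 were higher and 11 lower. *Cck* (cholecystokinin) went from 27.9, 47.2 and 46.8 to 238, 214 and 164 normalized counts, a log2 fold change of 2.33 (SE 0.29, adjusted p = 0.00803). *Insl5*, an insulin-like peptide of the distal colon, went from 3159, 2984 and 3251 to 5296, 6545 and 7386 (1.02, adjusted p = 0.00908), and *Pyy* (peptide YY) rose by 0.94 on the log2 scale. *Sst* (somatostatin) and *Sct* (secretin) rose by 1.19 and 1.39. The groups did not overlap for any of these 5 hormone genes. The lineage regulator gene *Neurog3* had 69.1, 98.9 and 66.4 normalized counts at baseline and 139, 215 and 93.0 after DSS with overlapping groups. Its log2 fold change of 0.86 did not pass in limma (adjusted p = 0.0928) or edgeR (0.0741) and passed in DESeq2 (0.0448). *Rfx6*, another transcription factor of these cells, fell by 1.86 on the log2 scale (trend-removed -0.88, adjusted p = 0.0663).

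Of 15 tuft cell genes 0 rose in limma (3 at an unadjusted p under 0.05, 1 in edgeR and 2 in DESeq2) and 2 fell, although the median log2 fold change was 0.44. *Hpgds*, prostaglandin D synthase, went from 187, 278 and 197 to 29.2, 25.8 and 84.0 normalized counts (-2.41, adjusted p = 0.0151), and its trend-removed value was -0.90 (adjusted p = 0.0334). *Rgs13*, a regulator of G protein signaling, fell by 1.22 on the log2 scale, with a trend-removed value of 0.36. *Pou2f3*, the regulator gene of the tuft lineage, had 27.9, 25.9 and 19.7 at baseline and 60.4, 48.6 and 27.7 after DSS (adjusted p = 0.11), so that DSS replicate 3 lay just below the highest baseline library and the groups overlapped.

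Genes of mitosis were lower, and those that fell had a lower median GC content than those that were not called. Of 29 tested, 0 rose in limma (0 also at an unadjusted p under 0.05, in edgeR and in DESeq2) and 16 fell, with a median log2 fold change of -1.51. With the trend removed 0 rose and 13 fell (median -0.90), and the unadjusted counts were 0 and 21. *Mki67* (chr7:135689784-135716361, minus strand), the proliferation marker Ki-67, had 24710.0, 19545 and 12664 normalized counts at baseline and 571, 534 and 1721 after DSS. Its log2 fold change was -4.50 (SE 0.487, adjusted p = 0.00731), with a trend-removed value of -3.47 (adjusted p = 0.00193). *Cenpe*, a kinetochore motor, went from 3674, 3014 and 1651 to 66.9, 54.8 and 117 normalized counts (-5.11, adjusted p = 0.00693), with a trend-removed value of -3.25. In both genes DSS replicate 3, like the other DSS libraries, lay below the lowest baseline library. *Cenpf*, *Kif11* and *Top2a* fell as well, with log2 fold changes of -5.23, -3.79 and -3.22, and of -3.28, -2.07 and -1.71 with the trend removed.

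By contrast, *Cdc20*, the activator of the anaphase-promoting complex, had 5378, 3517 and 2562 normalized counts at baseline and 2212, 4072 and 1948 after DSS. *Plk1*, the polo-like mitotic kinase, had 3611, 2498 and 1775 at baseline and 1877, 3325 and 1654 after DSS. In both genes the groups overlapped, and the log2 fold changes of -0.49 (adjusted p = 0.306) and -0.21 (adjusted p = 0.642) did not pass. The 16 mitosis genes that fell had a median transcript GC content of 43.8% (41.0% to 48.4%) and did not overlap between groups, while the 13 that were not called had a median of 52.5% (47.4% to 56.1%), a median log2 fold change of -0.40 and overlapping groups. The 4 coding stretches of 120 bases shown here have the composition of their whole transcript, with G and C in capitals. They come from GENCODE vM21 transcripts on GRCm38, from chr3:135237536-135237655 (plus strand, exon 22 of 46), chr19:34949743-34949862 (plus strand, exon 19 of 32), chr4:118435559-118435678 (minus strand, exon 7 of 10) and chr7:122159653-122159772 (plus strand, exon 1 of 10). The first pair is from genes that fell, with 43.3% and 39.2% G and C, and the second pair is from genes that were not called, with 55.8% in both.
Cenpe: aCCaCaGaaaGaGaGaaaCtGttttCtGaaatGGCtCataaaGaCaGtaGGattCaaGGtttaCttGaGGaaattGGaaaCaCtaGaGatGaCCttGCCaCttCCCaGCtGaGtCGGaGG
Kif20b: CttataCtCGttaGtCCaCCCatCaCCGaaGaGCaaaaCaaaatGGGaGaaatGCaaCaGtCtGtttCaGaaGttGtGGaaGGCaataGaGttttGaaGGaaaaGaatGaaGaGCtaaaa
Cdc20: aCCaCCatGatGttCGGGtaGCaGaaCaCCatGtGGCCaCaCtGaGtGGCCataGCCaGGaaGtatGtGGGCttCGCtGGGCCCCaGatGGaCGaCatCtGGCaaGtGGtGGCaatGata
Plk1: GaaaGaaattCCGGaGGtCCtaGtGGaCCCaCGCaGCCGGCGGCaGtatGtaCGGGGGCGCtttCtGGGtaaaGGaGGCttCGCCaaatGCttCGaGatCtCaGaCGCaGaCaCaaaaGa

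**Figure D3:**
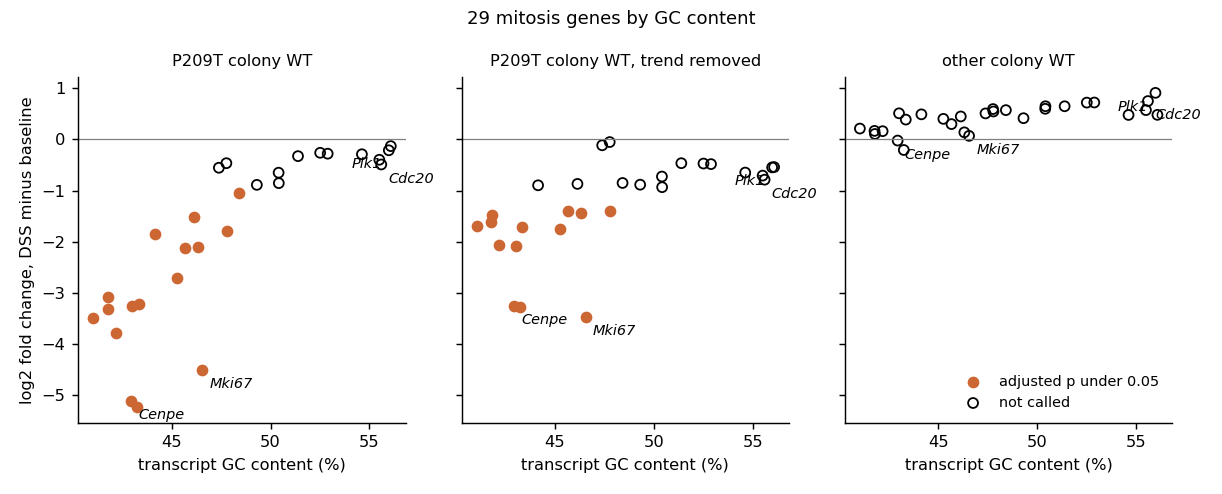
Log2 fold change (DSS minus baseline) of the 29 mitosis genes against the GC content of their longest transcript, each point a gene, filled where called, in the P209T colony before and after removal of the trend and in the other colony. In the first panel the 16 genes that fell lie between 41.0% and 48.4% GC and the 13 not called between 47.4% and 56.1%, 13 genes are called with the trend removed, and 0 are called in the other colony.

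Genes of S phase gave calls in both directions, with 8 higher (25%) and 5 lower (15.6%) of 32 tested, beside 14% and 21.6% over all genes. The median log2 fold change was -0.06, and with the trend removed 5 were higher and 1 lower (median 0.25). *Ung*, a uracil glycosylase of DNA repair, went from 495, 459.8 and 684 to 1095, 1214 and 973 normalized counts (1.02, adjusted p = 0.0145). *Cdc6*, which loads the replicative helicase, rose by 0.88 on the log2 scale. *Pola1*, the catalytic subunit of DNA polymerase alpha, went from 1182, 1022 and 997 to 64.9, 46.5 and 211 (-3.61, adjusted p = 0.00947), with a trend-removed value of -1.6 (adjusted p = 0.00356). It is GC-poor (41.5%), and *Ung* and *Cdc6* are not (57.4% and 49.4%).

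Of 25 stem cell and Wnt target genes, 4 rose and 3 fell (median log2 fold change 0.20), and 5 rose and 0 fell in limma with the trend removed (8 and 3 at an unadjusted p under 0.05; median 0.01). *Lgr5*, the marker of cycling crypt-base stem cells, had 455, 282 and 288 normalized counts at baseline and 147, 159 and 253 after DSS. The groups did not overlap, but the log2 fold change of -0.88 (SE 0.297) did not pass in limma (adjusted p = 0.058) or edgeR (0.073) and passed in DESeq2 (0.0233). Its trend-removed value was -0.25 (adjusted p = 0.4). *Lgr4*, its widely expressed relative, and *Bmi1*, a Polycomb gene, fell by 1.27 and 1.95 on the log2 scale, with trend-removed values of -0.47 (adjusted p = 0.0688) and 0.01 (adjusted p = 0.971). *Ephb2*, a receptor that positions cells along the crypt, rose by 0.74 (trend-removed 0.32, adjusted p = 0.0693). *Tnfrsf19*, a Wnt target receptor of stem cells, rose from 3.64, 8.99 and 3.69 to 26.6, 18.6 and 24.5 normalized counts (log2 fold change 2.0, adjusted p = 0.0171).

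Genes that mark fetal-like or revival epithelium after injury gave 5 higher and 4 lower of 21 tested (median log2 fold change 0.17), and 7 higher and 1 lower with the trend removed (median 0.32). *Clu* (clusterin), the name gene of revival stem cells, went from 24.3, 39.3 and 27.1 to 118, 86.8 and 75.9 normalized counts, without overlap (1.6, adjusted p = 0.0137). *Msln* (mesothelin) rose from at most 6.74 to between 10.3 and 24.7 normalized counts (trend-removed adjusted p = 0.0729). *Anxa1* (annexin A1) and *Cxadr* fell by 1.37 and 1.35 on the log2 scale, with trend-removed values of -0.55 (adjusted p = 0.0145) and 0.56 (adjusted p = 0.0205). The published *Clu*-positive revival set had 39 higher and 134 lower of 391 tested (median -0.26, median GC content 47.0%), against 66 higher and 58 lower with the trend removed. The published set of epithelium regenerating after DSS had 20 higher (14.9%) and 13 lower (9.7%) of 134 (median 0.24), beside 14% and 21.6% over all genes. With the trend removed 17 were higher and 10 lower. In the other colony 37 of 133 were higher and 1 lower (median 0.57), beside 3.29% higher and 1.42% lower over all genes there.

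Most circadian clock genes tested were called, some higher and some lower. In the core loop, CLOCK or NPAS2 pairs with the protein of *Arntl* (BMAL1) and activates genes with the E-box sequence CACGTG, among them the *Per* and *Cry* genes, whose products then repress it. Of 16 tested, 7 rose and 4 fell (median log2 fold change 0.85), and 4 rose and 3 fell with the trend removed. On the activating side, *Arntl* went from 2951, 2203 and 918 to 321, 422 and 789.9 normalized counts (-1.93, adjusted p = 0.0294). *Clock* went from 7116, 6969 and 5609 to 442, 299.8 and 1404 (-3.51, adjusted p = 0.00977), with a trend-removed value of -1.15 (adjusted p = 0.00565). *Npas2* went from 1827, 1714 and 787 to 626, 683 and 642 (-1.05, adjusted p = 0.0451). None of the 3 overlapped between groups. *Nr1d2*, a repressor of *Arntl*, fell by 1.69 on the log2 scale with overlapping groups, and its trend-removed value was 0.11 (adjusted p = 0.843).

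Among the other repressors and the output genes, *Per1* went from 842, 1074 and 1168 to 3937, 3275 and 3419.7 normalized counts (log2 fold change 1.79, SE 0.161, adjusted p = 0.00693). *Per2* went from 438, 623 and 771 to 2533, 1866 and 4594 (2.23, adjusted p = 0.0109). *Ciart*, a further repressor, went from 10.9, 32.6 and 94.7 to 501, 325 and 563 (3.74, adjusted p = 0.0147). All 3 DSS libraries lay above all baseline libraries in each. *Per3*, *Cry2* and *Bhlhe40* rose by 1.22, 0.79 and 1.03 on the log2 scale, of which the trend-removed values of the first pair had adjusted p = 0.0738 and 0.0551. *Tef*, an output transcription factor, had 285, 908 and 2842 at baseline and 5734, 4706 and 5271 after DSS (2.53, adjusted p = 0.0411; 0.0759 in edgeR and 0.0574 with the trend removed). The baseline libraries also differed among themselves, with *Ciart* and *Tef* lowest in baseline replicate 1 and highest in baseline replicate 3, and *Arntl* highest in the first and lowest in the last. The hour of collection is not given in the sources used here.

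Promoters of 2 clock genes that rose and 1 that fell are shown because the E-box is the element through which the clock proteins act. A promoter is here the 250 bases before a start site, from RefSeq on GRCm38.p6, searched for CACGTG, which reads the same on both strands and is 1 case of CANNTG. Of the 18 clock genes listed, 15 had at least 1 promoter in the RefSeq set. Of their 20 promoters 6 held CACGTG (30%), beside 6.02% of all 32851 promoters, and these belonged to *Bhlhe41*, *Ciart*, *Cry1*, *Per1* and *Tef*. Of these genes, *Bhlhe41* and *Cry1* were not among those called. The promoters of *Per3* and *Cry2*, which rose, held 0, as did those of *Arntl*, *Clock*, *Npas2* and *Nr1d2*, which fell. *Ciart* (chr3:95882229-95882478, minus strand) held 3 matches, at 116, 58 and 44 bases before the start, and the first *Per1* promoter (chr11:69098699-69098948, plus strand) held 1, at 166 bases. The first *Clock* promoter (chr5:76304793-76305042, minus strand) held 0, which says only that these letters are not in this window. Matches are in capitals, and a match is a description, not a bound site.
Ciart: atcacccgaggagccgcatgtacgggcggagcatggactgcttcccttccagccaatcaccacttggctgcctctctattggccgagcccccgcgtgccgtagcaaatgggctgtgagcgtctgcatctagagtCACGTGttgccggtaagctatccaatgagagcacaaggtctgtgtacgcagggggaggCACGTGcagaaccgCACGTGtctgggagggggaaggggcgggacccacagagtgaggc
Per1: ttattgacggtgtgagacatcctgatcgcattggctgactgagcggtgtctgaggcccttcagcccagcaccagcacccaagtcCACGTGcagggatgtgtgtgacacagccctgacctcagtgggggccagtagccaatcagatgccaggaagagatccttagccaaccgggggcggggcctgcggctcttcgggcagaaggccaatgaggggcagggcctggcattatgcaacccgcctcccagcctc
Clock: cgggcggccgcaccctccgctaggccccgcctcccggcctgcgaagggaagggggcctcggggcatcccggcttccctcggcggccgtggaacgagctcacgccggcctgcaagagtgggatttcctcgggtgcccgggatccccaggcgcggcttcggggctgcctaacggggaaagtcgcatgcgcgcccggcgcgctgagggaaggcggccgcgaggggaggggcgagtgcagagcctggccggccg

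**Figure D4:**
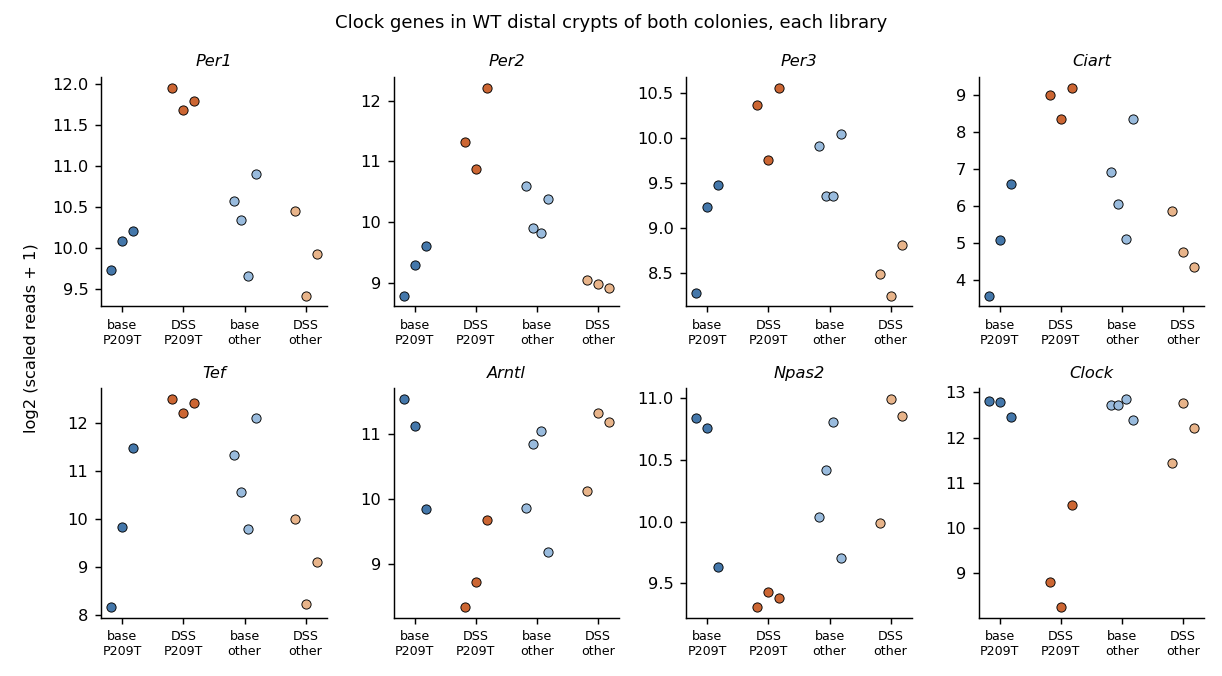
Level of 8 clock genes, as log2 (scaled reads + 1) with the 13 WT distal libraries of both colonies scaled together, each point a library. In the P209T colony the 3 DSS libraries lie above baseline in *Per1*, *Per2*, *Per3*, *Ciart* and *Tef* and below it in *Arntl*, *Npas2* and *Clock*, and in the other colony *Per2* lies lower after DSS (log2 fold change -1.20).

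Immune and defense genes showed no common direction. Of 28 antimicrobial genes 4 rose and 2 fell (median log2 fold change 0.47), against 2 and 0 in limma with the trend removed (8 and 1 at an unadjusted p under 0.05). *S100a9*, a subunit of calprotectin and abundant in neutrophils, went from 8.49, 4.50 and 7.38 to 159.7, 24.8 and 41.6 normalized counts (2.89, adjusted p = 0.0234). *Nox1*, the epithelial NADPH oxidase, went from 13916, 11450.1 and 8088 to 3203, 2847 and 5075 (-1.6, adjusted p = 0.0124; trend-removed -0.57, adjusted p = 0.0527). Of 41 interferon-stimulated genes 1 rose and 3 fell (median -0.17), against 2 and 3 with the trend removed. These counts depended on single libraries: without DSS replicate 3, 4 rose and 24 fell, and without any other 1 of the 6 libraries at most 1 rose and 0 fell in limma. DSS replicate 3 alone against baseline gave 13 higher and 3 lower, with the spread taken from the baseline libraries only. The guanylate-binding protein genes *Gbp7* and *Gbp6* fell by 3.40 and 2.97 on the log2 scale, and *Parp14* by 2.10. Their trend-removed values were -1.43 (adjusted p = 0.0379), -2.23 (adjusted p = 0.0556) and -1.13 (adjusted p = 0.0494), and in edgeR *Gbp6* and *Parp14* did not pass (adjusted p = 0.127 and 0.0956). Their values in DSS replicate 3 (496, 477 and 3957 normalized counts) were several times those of the other DSS libraries (88.3, 48.7 and 999 in DSS replicate 1). Of 10 genes of MHC class II, 0 rose and 0 fell in limma (0 in either direction at an unadjusted p under 0.05, in edgeR and in DESeq2), and 1 fell with the trend removed. Chemokine and cytokine genes gave 5 higher and 4 lower of 20 tested (median 0.18), against 3 and 0 in limma with the trend removed (5 and 2 at an unadjusted p under 0.05).

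Markers of other cell types moved with the treatment in part. The summed level of 9 epithelial markers was 956210 to 1081000 normalized counts at baseline and 1130200 to 1553300 after DSS, and the epithelial adhesion gene *Epcam* had a log2 fold change of 0.14 (adjusted p = 0.272), so the defining markers of epithelium were present in each library. The 11 fibroblast markers summed to 500 to 801 at baseline and 1196 to 1632 after DSS, most of it *Fbln1*. Of these markers 3 of 6 tested rose, and the defining marker *Pdgfra* was at 0 to 4.90 normalized counts. *Col1a1* rose by 1.54 on the log2 scale (adjusted p = 0.0217) but did not pass with the trend removed (adjusted p = 0.0666). *Fbln1* had 360.2, 415 and 476 normalized counts at baseline and 1012, 1352 and 836 after DSS (1.33, adjusted p = 0.0108), and *Col3a1* 10.9, 36 and 38.1 against 190.2, 67.2 and 83.2 (2.0, adjusted p = 0.0413; trend-removed adjusted p = 0.0622). Mast cell markers summed to 2380 to 2910 at baseline and 3422 to 4683 after DSS, most of it *Kit* (1958 to 2546 and 2913 to 3500), which was the 1 of 4 tested markers that rose. The mast cell protease genes *Mcpt1* and *Mcpt2* did not pass (log2 fold changes 1.61 and 1.44, adjusted p = 0.0564 and 0.0555) and did with the trend removed (adjusted p = 0.0435 and 0.0368), *Cma1* was at 0.14 (adjusted p = 0.704), and *Cpa3* had at most 9.70 normalized counts. Of 6 neutrophil markers tested, *S100a9* alone rose in limma. *S100a8*, the partner of *S100a9*, had 37.6, 47.2 and 29.5 normalized counts at baseline and 258, 44.4 and 72.6 after DSS (adjusted p = 0.138). DSS replicate 1 was the highest library in *S100a8*, *S100a9*, *Retnlg* and *Mmp9*. T and NK cell markers summed to 1090 to 3508 and 1277 to 1352, and macrophage and monocyte markers to 6949 to 7907 and 7315 to 8186, of which *Cd14* alone made up 5414 to 6747 and 6127 to 7386. *Ptprc* (CD45), which all leukocytes carry and which a published tuft cell set also holds, went from 418, 659 and 840.3 to 28.6, 14.5 and 89.8 (-4.15, adjusted p = 0.01). It is GC-poor (42.7%), and its trend-removed value was -2.53. Of the 12 macrophage and monocyte markers, *Ptprc* included, 1 fell and 2 rose. Those that rose were *Csf1r* and *C1qa*, by 0.76 and 0.68 on the log2 scale, and neither passed with the trend removed (0.41 and 0.40, adjusted p = 0.181 and 0.263). Squamous epithelium, which lines the anal canal, had 7 markers that summed to 148 to 163 at baseline and 175 to 277 after DSS, without overlap. Of its 4 tested markers *Krt14* rose (1.71, adjusted p = 0.0311; trend-removed 1.38, adjusted p = 0.0525), and *Krt5* and *Krt6a* were at 0 in each baseline library and at 4.54 to 7.34 and 1.95 to 18.6 normalized counts after DSS. Of 3 plasma cell markers tested, *Derl3* rose (1.16, adjusted p = 0.0268; trend-removed adjusted p = 0.0654) and *Jchain* was at -1.09 (adjusted p = 0.0637). The part of these other cells in the results was not tested.

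The 10 called genes with the largest rise, with a mean of at least 100 in the higher group and no overlap, began with *H2ac19*, *Pcsk5* and *Mal*. *Pcsk5* (chr19:17432319-17837632, minus strand), a convertase that cleaves secreted precursor proteins, went from 1.21, 1.12 and 3.69 to 367, 217 and 126 normalized counts (log2 fold change 6.27, SE 0.508, adjusted p = 0.00693; trend-removed 5.93). *Mal*, a membrane protein of apical transport, went from 9.70, 7.87 and 19.7 to 502, 452 and 88.9 (4.45, adjusted p = 0.0107). For both, the DSS libraries all lay several times above the highest baseline library, and DSS replicate 3 was the lowest of them. *H2ac19*, an H2A histone gene whose reads can be shared with near-identical histone genes, had 0, 123 and 0 at baseline and 349, 394 and 701 after DSS, and its call did not hold in edgeR (adjusted p = 0.0917) or DESeq2 (0.251).

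Of the other 7, *B3gnt6*, the synthase of core 3 O-glycans on mucins, went from 48.5, 34.8 and 41.8 to 497, 593 and 242 normalized counts (log2 fold change 3.29, adjusted p = 0.00769). *Eyelinc18* (a noncoding RNA), *Ciart*, *Rhbdl3* (a rhomboid family gene), *Fzd9* (a Wnt receptor), *Adamts17* (a secreted metalloprotease) and *Fam221b* rose by between 2.58 (*Fam221b*) and 4.24 (*Eyelinc18*) on the log2 scale. All 10 kept their call with the trend removed.

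The 10 genes with the largest fall were GC-poor with 1 exception. The exception, *Rps6-ps4*, is a processed pseudogene of a ribosomal protein gene whose reads cannot be told from those of its parent with certainty. It had 137, 755 and 1401 normalized counts at baseline and 0 in each DSS library, at least 246.6-fold lower against a floor of 3 reads per library. Of the rest, *Gvin1*, a giant interferon-inducible GTPase, went from 1934, 1917 and 3166 to 96.7, 44.4 and 34.3 (-5.40, adjusted p = 0.00693; trend-removed -3.02). Its reads may be shared with its relatives, among them the pseudogene *Gm8995*, which fell by 4.74 on the log2 scale (trend-removed -2.47). *Atrx*, a chromatin remodeler, went from 5074, 5016 and 4026 to 206, 86.8 and 338 (-4.67, adjusted p = 0.00702), with a trend-removed value of -2.13. The kinetochore and spindle genes *Cenpf*, *Cenpe*, *Kif20b* and *Knl1* and the zinc finger genes *Zfp966* and *Zfp973* completed the list, with log2 fold changes from -5.23 (*Cenpf*) to -4.54 (*Knl1*). Of these, *Kif20b*, a mitotic kinesin, had a trend-removed value of -2.80 and *Knl1*, the kinetochore scaffold, of -1.79. *Zfp966* was at -2.82 and *Zfp973* at -3.91, and all 10 kept their call with the trend removed.

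Among metabolic and signaling lists, glycolysis and Notch genes were mostly higher where called. Of 23 genes of glycolysis and the hypoxia response 10 rose and 1 fell (median log2 fold change 0.37), led by the lactate exporter *Slc16a3* at 394, 288 and 336 normalized counts against 612, 806 and 902 (1.18, adjusted p = 0.0126). With the trend removed 5 rose and 0 fell (13 and 0 at an unadjusted p under 0.05). Of 15 Notch pathway genes 6 rose and 0 fell in limma (1 lower at an unadjusted p under 0.05, 0 in edgeR and 1 in DESeq2; median 0.51), among them the ligand gene *Dll3* (1.56, adjusted p = 0.019), and 4 rose and 0 fell with the trend removed (5 and 0 at an unadjusted p under 0.05). Of 21 cholesterol genes 4 rose and 3 fell (median 0.43), against 7 and 0 in limma with the trend removed (10 and 0 at an unadjusted p under 0.05). *Idi1*, an isomerase of the pathway, fell by 1.61 with a trend-removed value of -0.14 (adjusted p = 0.495). Among 16 tight junction genes 1 rose and 3 fell (median 0.16), against 3 and 2 with the trend removed (median 0.01). *Cldn15*, which forms cation pores, had 3041, 2830.5 and 3994 at baseline and 9412, 9647 and 6182 after DSS (1.34, adjusted p = 0.0108). *Cldn8* and *Tjp1*, a sealing claudin and the scaffold ZO-1, fell by 2.61 and 1.52 on the log2 scale, with trend-removed values of -1.04 and -0.68 (adjusted p = 0.0378 and 0.00985).

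The remaining lists gave calls in both directions or few calls, beside 14% higher and 21.6% lower over all genes. Identity transcription factors alone had a larger share higher (26.1%), and none of these lists had a larger share lower. Oxidative phosphorylation gave 5 higher and 5 lower of 44 (median 0.29), identity transcription factors 6 and 3 of 23 (0.23), the EGF family 1 and 1 of 10 (-0.17) and immediate early genes 2 and 2 of 21 (0.13). Fatty acid oxidation gave 0 higher and 3 lower of 25 in limma (1 higher at an unadjusted p under 0.05, in edgeR and in DESeq2; median 0.12), and xenobiotic enzymes 0 and 4 of 29 (4 higher at an unadjusted p under 0.05, 2 in edgeR and in DESeq2; median 0.08). With the trend removed the counts were 6 and 2 for oxidative phosphorylation, 3 and 1 for identity factors (median -0.01), 1 and 0 for the EGF family (3 and 0 at an unadjusted p under 0.05; median 0.05), 1 and 2 for immediate early genes (median -0.12), 0 and 2 for fatty acid oxidation (2 and 2 at an unadjusted p under 0.05) and 1 and 1 for xenobiotic enzymes.

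**Figure D5:**
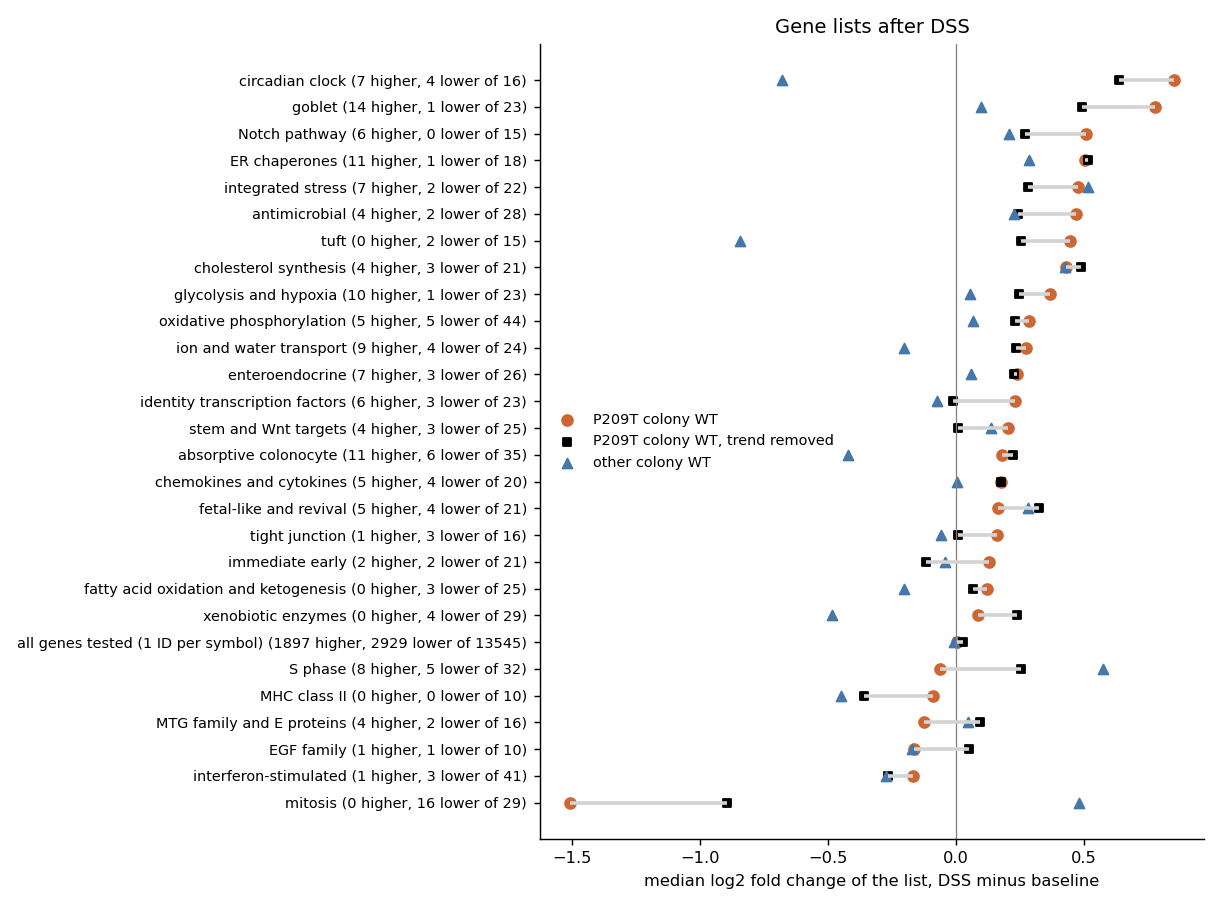
Median log2 fold change (DSS minus baseline) of each gene list, in the P209T colony before (circles) and after (squares) removal of the trend and in the other colony (triangles), with the counts of called genes beside each name. Mitosis is lowest in the P209T colony at -1.51 (-0.90 with the trend removed) and lies at 0.48 in the other colony, and the circadian clock and goblet lists are highest in the P209T colony at 0.85 and 0.78.

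The WT crypts of the other colony went through the same DSS course. Their calls come from a fit over 13 libraries in which all groups of both colonies share an estimate of the spread. The calls here come from a fit of the 6 libraries alone, so the counts of calls in the 2 colonies are not on equal terms. Of 13820 genes tested over 13 libraries, scaled together, 455 rose (3.29%) and 196 fell (1.42%) in that colony. The fold changes of the 2 colonies, which share no library, differed for many genes in a test of the difference itself, with 610 higher (4.41%) and 1799 lower (13%) in the P209T colony. With the trend removed these became 1043 and 819. Of the 13518 genes tested in both, 149 were called in both, which is 3.09% of the 4827 calls here and 29.9% of the 498 there. That 29.9% is not above the share of all genes called here (14% higher and 21.6% lower). Of the 149, 81 rose in both, 36 fell in both and 32 moved in opposite directions (Pearson's r of the fold changes across genes 0.396, genes not being independent). With the trend removed 365 genes were called in both, which is 11.4% of the 3190 calls here and 24% of the 1523 there. That 24% is close to the share of all genes called here (13.5% higher and 10.1% lower). Of the 365, 117 rose in both, 204 fell in both and 44 moved in opposite directions (r = 0.357). The DSS libraries of the other colony came from request 6217 and its baseline libraries from requests 5094 and 4149, so there too request and treatment cannot be told apart. In the GC-poorest of 5 groups, the other colony's DSS libraries lay at -0.673, 0.105 and -0.126, so 1 of them was as low as DSS replicate 3 here.

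Mitosis genes differed between the colonies. In the other colony 0 of 29 mitosis genes passed in either direction in limma (7 higher and 0 lower at an unadjusted p under 0.05, 0 in edgeR), and the median log2 fold change was 0.48. The difference passed for 19 genes, all lower in the P209T colony, both before and after the trend was removed. For *Mki67* the other colony's log2 fold change was 0.07 (adjusted p = 0.936), and the difference was -4.56 (adjusted p = 0.00126) or -3.65 with the trend removed (adjusted p = 0.000142). The clock genes differed as well, 9 higher and 3 lower of 16 with and without the trend removed. *Per2* fell by 1.20 on the log2 scale in the other colony (adjusted p = 0.0398), and the difference was 3.44 (adjusted p = 0.000818). *Cry2* fell there by 0.83 (adjusted p = 0.0209), with a difference of 1.63 (adjusted p = 0.00303).

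Of the 23 goblet genes 0 passed in the other colony in limma (7 higher and 1 lower at an unadjusted p under 0.05, 0 in edgeR; median 0.10), and the difference passed for 7, all higher in the P209T colony. *Spdef* had a log2 fold change of 0.55 there (adjusted p = 0.0901) and a difference of 1.06 (adjusted p = 0.0152). *Cbfa2t3* had 0.23 there (adjusted p = 0.518) and a difference of 0.97 (adjusted p = 0.0331), which did not pass with the trend removed (0.68, adjusted p = 0.0604). *Scnn1g* had -0.11 there (adjusted p = 0.924) and a difference of 2.62 (adjusted p = 0.0369).

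Other genes moved the same way in both colonies. *Pcsk5* rose by 5.40 on the log2 scale in the other colony (SE 0.494, adjusted p = 2.85e-05), and the difference of 0.89 between colonies had an SE of 0.723 (adjusted p = 0.411). *Mmp7* (matrilysin), a protease gene of injured epithelium, had 27.9, 11.2 and 19.7 normalized counts at baseline and 70.8, 96.1 and 92.2 after DSS (log2 fold change 2.16, adjusted p = 0.0118) and rose by 2.89 in the other colony. *Isx*, an intestinal homeobox gene, rose by 1.96 and 2.23, *Cck* by 2.33 and 1.53, *S100a9* by 2.89 and 5.08, and *Fbln1* by 1.33 and 1.13. *Ffar2*, a receptor for short-chain fatty acids, went from 555, 351 and 485 to 1299.8, 1364 and 895 (1.36, adjusted p = 0.013) and rose by 1.19 in the other colony. *Mptx1*, a pentraxin gene whose reads may be shared with its relative *Mptx2*, fell from 60319.7, 50779 and 53016 to 17607, 14814 and 23976 (-1.57, adjusted p = 0.00803) and by 1.25 in the other colony. For *Hpgds* the log2 fold changes were -2.41 and -1.77. *Id4* rose by 0.85 and 1.23. For none of these did the test of the difference between colonies pass.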

How the data were processed

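Crypt RNA was sequenced as paired ends. The submitters' processing notes name fastp 0.20.0, Salmon 1.3.0, R 3.6.3 and DESeq2 1.26.0 with build mm10 (GRCm38), and the study's methods name a GENCODE vM21 transcriptome. The signal values that the authors deposited are normalized counts, that is, estimated counts summed per gene, made whole and divided by the size factor of the library, separately in each table. The tables also hold the mean, the fold change on the log2 scale and the raw and adjusted p-value that the authors computed, none of which was used. Multiplying by the recovered size factor gave whole reads for 100% of the low values within 0.05 read, and these reads served for edgeR, DESeq2 and the scaling over both colonies.

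The trend method of limma 3.58.1 (R 4.3.3) was run over the 6 libraries on log2 (normalized count + 1), for genes whose mean was 10 or more, with p-values adjusted by Benjamini-Hochberg and called below 0.05. The difference between colonies was an interaction term over 13 libraries. Trends with transcript GC content and length were removed per library with mgcv 1.9.3. Alternatives planned were each library left out in turn, no filter, 0.1 as the pseudocount, a replicate block, *Xist* as a covariate, TMM, a 1.5-fold change, edgeR 4.0.16, DESeq2 1.42.0, removal of the length trend and the other colony's baseline. Removal of the GC trend, of both trends and DSS replicate 3 alone were added after the data were seen. The calculations were tested on simulated data.

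The comparison, gene lists, markers and tests were chosen with earlier results of these data known. Genes were named as *Cbfa2t3*, *Ascl2* and the MTG and E protein list, the 10 largest non-overlapping changes in each direction among called genes with a mean of at least 100 in the higher group, and in each list at most 4 called genes of the largest change per direction, at most 3 of the highest level, and lineage or stem cell markers. *Mmp7*, *Ffar2*, *Mptx1*, *Ptprc*, *Csf1r*, *C1qa*, *Fbln1*, *Col3a1*, *Cdc20*, *Plk1*, the single markers of other cell types and the choice within lists of which genes to print were made after their values were seen. Published sets were taken from the study's supplement for membership alone. Replicates of a group differed by far more than sampling noise (at least 30.3 times, as chi-square per degree of freedom). Some genes that the rule names are not reported here.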

Additional observations from a re-analysis of the deposited data

Results flagged for a closer look

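The DSS effect in WT crypts differed between the 2 colonies, by the interaction test of limma at an adjusted p under 0.05, for 49 of the genes named above. Each value here is the log2 fold change (DSS minus baseline) in the P209T colony minus that in the other colony. Mitosis genes were lower in the P209T colony, namely *Cenpe* (-5.07), *Kif20b* (-5.03), *Cenpf* (-5.01), *Mki67* (-4.56), *Knl1* (-4.31), *Kif11* (-3.94) and *Top2a* (-3.59). The clock activators were lower as well, *Clock* (-2.97) and *Arntl* (-2.56), while the repressing and output genes of the clock were higher, *Bhlhe40* (1.14), *Cry2* (1.63), *Per1* (2.24), *Per3* (2.38), *Per2* (3.44), *Tef* (4.37) and *Ciart* (5.37).

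Goblet and mucus genes that were higher in the P209T colony were *Tff3* (0.71), *Foxa3* (0.80), *Zg16* (0.87), *Spdef* (1.06), *Fcgbp* (1.16) and *B3gnt6* (1.97). Genes of sodium absorption and guanylin were *Scnn1a* (0.94), *Scnn1b* (1.52), *Guca2a* (1.70) and *Scnn1g* (2.62), the hormone genes *Insl5* (0.99) and *Sst* (1.02) and the ER degradation genes *Syvn1* (0.87) and *Herpud1* (1.02). The other genes that were higher were *Cbfa2t3* (0.97), *Cldn15* (1.11) and *Clu* (1.46). The other genes that were lower were *Atrx* (-4.13), *Pola1* (-3.84), *Gm8995* (-3.76), *Zfp973* (-3.67), *Ptprc* (-3.65), *Cldn8* (-2.19), *Hsp90b1* (-2.12), *Bmi1* (-2.0), *Aqp4* (-1.91), *Nox1* (-1.80), *Hdac2* (-1.67), *Anxa1* (-1.64), *Cftr* (-1.62), *Idi1* (-1.61), *Tcf4* (-1.60) and *Lgr5* (-1.22). With the trend in GC content and length removed, 14 of the 49 no longer passed (*Zfp973*, *Cldn8*, *Bmi1*, *Aqp4*, *Nox1*, *Hdac2*, *Cftr*, *Idi1*, *Tcf4*, *Lgr5*, *Tff3*, *Syvn1*, *Cbfa2t3* and *B3gnt6*), and of these *Cftr* (0.27) and *Tcf4* (0.44) had the opposite sign. Each colony's DSS libraries came from a sequencing request of their own (5740 and 6217), so colony and request cannot be told apart in these differences.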

How the results depend on the processing

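The counts of called genes depended strongly on single libraries and on the GC trend. Leaving out 1 library at a time gave 1 to 4377 genes higher and 0 to 4709 lower, lowest without baseline replicate 2 and highest without DSS replicate 3, and for the colony difference 212 to 1297 higher and 912 to 3689 lower. Without baseline replicate 1 there were 241 and 443, without baseline replicate 3 492 and 779, without DSS replicate 1 105 and 409, and without DSS replicate 2 591 and 1231. With *Xist* as a covariate 0 rose and 1 fell. Requiring a 1.5-fold change left 1052 higher, removing the length trend gave 3802 higher, and DSS replicate 3 alone against baseline gave 907 higher (1983 lower), where the spread comes from the baseline libraries only and the lone library is assumed to vary like them. Removing the GC trend left 1223 lower, and removing both trends 1368 lower. With both removed, leaving out DSS replicate 1, 2 or 3 gave 377, 765 and 3372 higher, and 363, 606 and 2676 lower. The colony difference gave 1043 higher and 819 lower with both trends removed, and 992 lower with the other colony's baseline from request 5094 alone. The replicate block gave 658 higher (2021 lower) and 251 higher for the colony difference. Libraries of the same number did not deviate together (r = -0.0468, -0.121 and -0.0907), so the numbers share only a name and were not treated as pairs. The cause of these changes was not tested.

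All 4833 calls kept their direction, where tested, in each alternative built on the 6 libraries except removal of the length trend (99.1%), the GC trend (83.4%) or both (83.3%, and 82.7% to 82.8% with a DSS library left out as well). The calls came from these same libraries, so a kept direction is no independent support. With both trends removed the log2 fold changes of *Tcf3* (-0.0151), *Tcf4* (0.75), *Hdac2* (0.0341), *Nr1d2* (0.11), *Cftr* (0.19), *Bmi1* (0.00719), *Slc5a8* (0.73), *Abcg2* (0.71), *Rgs13* (0.36) and *Cxadr* (0.56) had the opposite sign. Of the 103 named genes called, 78 kept their call with both trends removed, 102 in DESeq2 and 96 in edgeR, where *Sytl2*, *Nr1d2*, *Tef*, *Gbp6*, *Parp14*, *Lgr4* and *H2ac19* lost it. Among genes not called, *Clca1* changed sign in leaving out libraries (-0.11 to 0.29) and against the other colony's baseline (-0.34), *Plk1* in leaving out libraries (-0.516 to 0.0482), with *Xist* as a covariate (0.0553) and against that baseline (0.19), and *Cdc20* against that baseline (0.00962). Precision is set by the spread between 3 libraries a group, which exceeded counting noise at least 30.3 times (chi-square per degree of freedom).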

Other observations

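In both colonies a further group of genes rose after DSS that the lists above do not hold. *Hapln4*, a link protein of the extracellular matrix, had 4.85, 0 and 1.23 normalized counts at baseline and 98.7, 102.3 and 56.3 after DSS. *Pde2a*, a phosphodiesterase of cyclic nucleotides, had 2053, 2208 and 2614 at baseline and 7831, 7657 and 6196 after DSS. *Ret*, a receptor tyrosine kinase, had 139, 94.4 and 121 at baseline and 303, 293 and 357 after DSS, and the chemokine gene *Ccl9* 209.8, 135 and 202 against 721, 739 and 392. In each of the 4 genes all DSS libraries of the P209T colony lay above all baseline libraries. They were chosen after their values were seen, from the 81 genes that rose in both colonies.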
